A study of Mus musculus with 3 samples.

Results

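The promoters of cytoplasmic ribosomal protein genes formed 82 of the 7197 viewpoints in a promoter capture of mouse erythroid cells. A viewpoint is the DpnII fragment that the capture probes target, and its contacts are the other fragments of the same chromosome found ligated to it. Members were chosen by name, as viewpoints with a name part that begins with Rpl or Rps and a digit or with Rplp, without the Rps6k kinases and without names listed more than once. They covered 79 ribosomal protein genes, of which 48 encode proteins named for the large subunit and 31 for the small subunit. The name rule also took in Rps19bp1, which encodes a binding partner of Rps19 and no ribosomal protein, and it left out ribosomal protein genes with other names, such as Rpsa and Fau. Rpl19 and Rpl38 had 2 viewpoints each, 4 viewpoints belonged to paralogues (Rpl22l1, Rpl7l1, Rps27l and the shared viewpoint Mgat2_Rpl36al), and 16 viewpoints also carried the name of another gene.

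The cells came from spleens of F1 hybrid mice of the strains C57BL/6 and CBA/J and were selected for ter119, a surface marker of late erythroid cells, with CD71 and ter119 given as their markers. All mice had received phenylhydrazine, which destroys red cells and fills the spleen with erythroid precursors, in 3 doses 12 h apart, and were killed on day 5. The 3 libraries formed 1 group with no control group, so contacts were compared between fragments, distances and promoters within the libraries. The columns of the deposited table carried no sample names and are called library a, b and c in their order, and contacts alone could not be used to check the cell type against its marker genes.

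A ribosome holds one copy of nearly every ribosomal protein, so the genes, which are scattered over the genome, must give similar amounts of product. Erythroid precursors make ribosomes at a high rate before they fill with hemoglobin, and loss of one copy of several of these genes causes Diamond-Blackfan anemia, in which red cell production fails. Vertebrate ribosomal protein mRNAs typically begin with a C followed by a run of pyrimidines, the 5′ terminal oligopyrimidine (TOP) tract that links their translation to growth signals. Many processed pseudogenes of these genes lie elsewhere in the genome, and reads from such copies can be hard to place. The 82 viewpoints lay on 19 chromosomes, with 14 on chromosome 7, and had a median length of 672.5 bp and a median GC content of 57.2%, compared with 742 bp and 59.1% over all 7176 viewpoints that had a position and contacts. The annotated start of the gene lay inside the fragment for 66 of the 80 members with an annotated strand, and within 1 kb of it for 77.

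Promoter sequences were listed for 60 of the 79 genes in the RefSeq table (build GRCm38.p6, 250 bases before to 50 after a start). A tract was counted as a C followed by at least 4 further pyrimidines, with no pyrimidine directly before the C. Runs with a pyrimidine before the C were not counted. Such a tract began within 10 bases of a listed start in 27 of these 60 genes (45.0%). It did so in 26 of 69 mitochondrial ribosomal protein genes (37.7%) and in 26.0% of all 27025 genes. The following promoters of members with a called contact (described further on) show the tract in capitals, over 70 bases before to 20 bases after the listed start. They lie in mm9 at chr10:23506996-23507085 (minus strand), chr3:130433297-130433386 (minus), chr5:121654440-121654529 (plus) and chr12:29320799-29320888 (minus).
Rps12: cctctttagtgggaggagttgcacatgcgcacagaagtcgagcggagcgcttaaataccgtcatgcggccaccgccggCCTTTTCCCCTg
Rpl34: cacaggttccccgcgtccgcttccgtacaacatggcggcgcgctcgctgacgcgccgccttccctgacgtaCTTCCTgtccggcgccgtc
Rpl6: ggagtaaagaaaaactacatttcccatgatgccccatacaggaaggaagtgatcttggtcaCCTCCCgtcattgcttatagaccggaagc
Rps7: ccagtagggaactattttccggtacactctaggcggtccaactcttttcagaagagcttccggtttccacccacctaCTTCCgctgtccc
The ETS factor motif CCGGAAG, searched on both strands of the 300 bases, occurred in 24 of the 60 genes (40.0%), in 37.7% of the mitochondrial set and in 9.93% of all genes. The Sp factor motif GGGCGG occurred in 63.3% of members, 49.3% of the mitochondrial set and 38.2% of all genes. AAGATGGC, the core of the YY1 motif, occurred in 10.0%, 17.4% and 3.19%, and AGATAA, which erythroid zinc finger factors of the GATA family bind, in 6.67%, 15.9% and 12.7%. TATAAA was found in 11.7% of members and 15.7% of all genes. These are letter matches in fixed windows, and members without a listed promoter were not searched.

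Depth was described first, because it sets which profiles can be read. Each count is 1 unique ligation event within the chromosome of the viewpoint (a cis event). The median member held 1438, 2471.5 and 2526.5 cis events in libraries a, b and c, close to the medians of 1377, 2561.5 and 2532 over all viewpoints. In the sum of the libraries, 79 of 82 members (96.3%, exact binomial 95% interval 89.7% to 99.2%) had at least 1000 events, compared with 93.6% of all viewpoints. At a minimum of 5000 events the order turned, with 54.9% of members and 60.6% of all viewpoints. Such intervals cover counting error only. Among members, counts of libraries b and c agree within sampling noise. Their chi-square per 5 kb window was 0.999, whereas that of libraries a and b was 1.15. Libraries b and c were therefore averaged and counted as 1 sample, so that each mean ± SD has n = 2. This is a cautious choice, since such agreement does not show that they are 1 sample. The paper counts the libraries as independent. Nothing in the labels gives the animals behind a library.

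**Figure D1:**
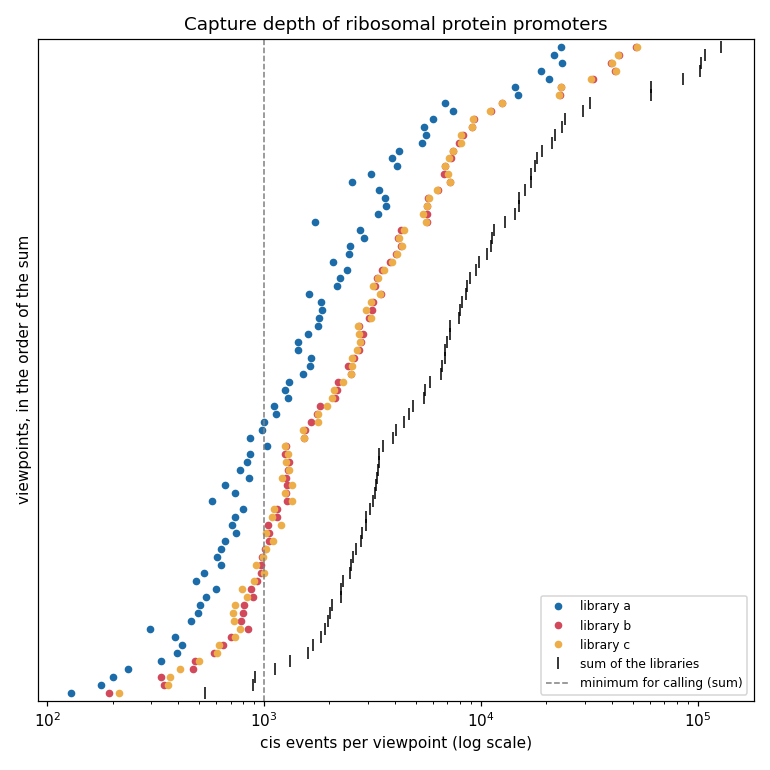
Cis events of each of the 82 viewpoints on a log axis, with 1 dot per library and a tick for their sum, in the order of the sum from bottom to top. The dashed line marks the minimum of 1000 events in the sum, and 3 viewpoints lie below it.

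The deepest members were Rpl4_Zwilch (Rpl4 encodes a large subunit protein), with 23296, 52007 and 52398 events in libraries a, b and c, Rplp1, which encodes a protein of the ribosomal stalk, with 23554, 39773 and 40166, and Rpl36a with 21776, 43079 and 42748. The 7 members on chromosome X or in a deeply captured stretch of chromosome 9 held 60865 to 127701 events in the sum. The other 75 members held 534 to 31812 events, with a median of 5468. The shallowest were Rps14 with 128, 192 and 214 events, Rps23 with 177, 347 and 362, and Rps26 with 201, 333 and 369. These 3 small subunit genes were below the minimum and were not searched for contacts. The search covered 28 small subunit viewpoints, all 50 of the large subunit and Rps19bp1. Median depth was 7566 events for the large subunit and 4667 for the small subunit, and 3183 for the 21 viewpoints of genes linked to Diamond-Blackfan anemia. Of the members, 18 held a 30-base word found in 100 or more other fragments of the genome. Their median depth was 2374 events, compared with 7094 for the other 64, with overlapping ranges of 534 to 127701 and 903 to 107603.

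Profiles agreed between libraries better in sums over 5 kb than at single fragments. The median squared Pearson correlation between libraries b and c over the 79 members was 0.332 at fragments and 0.833 at 5 kb windows, and 0.292 and 0.815 between libraries a and b. Over all viewpoints the medians for libraries b and c were 0.383 and 0.866.

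The distance profile asked where the contacts of these promoters lay. Of the cis events of a member, a median of 16.0% ± 1.66 (SD, n = 2) lay 10 to 100 kb away, compared with 16.5% ± 1.30 for all viewpoints. The share from 100 kb to 1 Mb was 21.7% ± 0.655 for members and 19.8% ± 0.643 for all viewpoints, a gap that was larger than either SD. Library by library it was 22.2%, 21% and 21.4% for members, compared with 20.3%, 19.3% and 19.4%. The SD measures spread between samples, not between viewpoints. In the sum of the libraries, the quartiles over viewpoints were 16.5% and 26.0% for members, and 15.4% and 23.8% for all viewpoints. Beyond 10 Mb the shares were 33.0% ± 2.34 and 33.1% ± 2.28. Counts per fragment fell with distance from 10 kb to 1 Mb with a slope of -0.886 ± 0.0280 (SD, n = 2) on log axes for members and -0.916 ± 0.0231 for all viewpoints. The slopes of members were -0.906, -0.870 and -0.863 in libraries a, b and c, compared with -0.932, -0.900 and -0.899. In each library the slope of members was the shallower of the pair, by about as much as the spread between samples. No test over viewpoints was run, since viewpoints of the same libraries are not replicates.

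**Figure D2:**
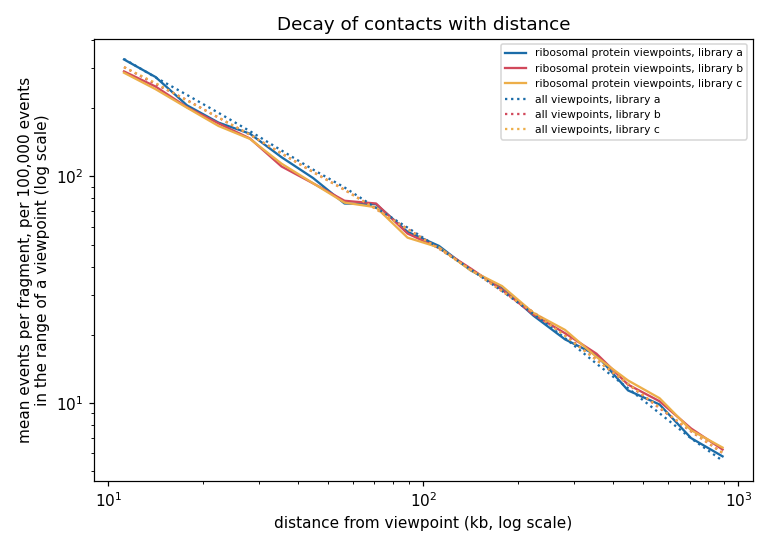
Mean events per fragment against distance, both on log axes, with each viewpoint scaled to 100,000 events in the range. Solid lines are ribosomal protein viewpoints and dotted lines all viewpoints, by library, and the solid lines run below the dotted ones from about 20 to 50 kb.

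Members differed more among themselves than the groups did. In the sum of the libraries, the share from 10 to 100 kb was highest for Rps26, which was under the depth minimum, at 31.8%, 26.7% and 27.6% in libraries a, b and c. In library b that of Rps18_Vps52 was higher. Among the next highest, it was 27.4%, 27.4% and 24.1% for Rps18_Vps52, 24.3%, 24.0% and 22.8% for the stalk protein gene Rplp2, and 23.4%, 22.2% and 23.2% for Rpl24. It was lowest for Rps23, at 9.60%, 6.05% and 9.39%. Among the next lowest, it was 10.4%, 8.84% and 9.40% for Rpl7_Rdh10, 9.30%, 9.20% and 10.1% for Rps12, and 11.3%, 9.31% and 9.29% for Rpl38_b. These members were picked by the same libraries, so the gap between high and low is a description, and neighbours in rank mostly overlapped. Fragments of the same gene lay close together, with 14.9% for Rpl19_a and 15.0% for Rpl19_b in the sum, and 11.4% for Rpl38_a and 9.79% for Rpl38_b.

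The near share was larger where more promoters were targeted nearby. Members with at most 4 other viewpoints within 500 kb had a median share of 13.2% ± 1.73 (SD, n = 2, 25 viewpoints), those with 5 to 14 had 16.2% ± 1.65 (40 viewpoints) and those with 15 or more had 20.5% ± 1.41 (17 viewpoints). The same classes of all viewpoints gave 14.1%, 17.1% and 21.2%. The rank correlation of the near share with the number of neighbours was 0.665 over the 82 members and 0.488 over 7176 viewpoints, as a description of points that share their libraries. With depth, it was -0.179 over the members.

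**Figure D3:**
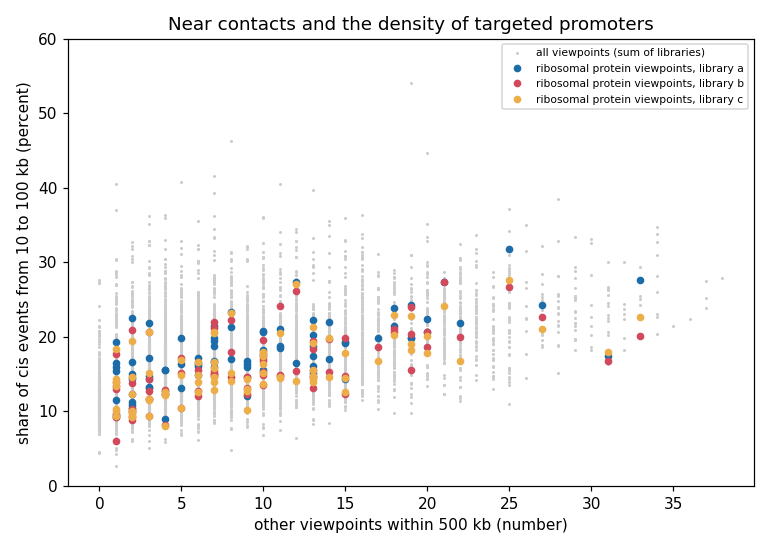
Share of cis events from 10 to 100 kb (percent) against the number of other viewpoints within 500 kb, with coloured dots for ribosomal protein viewpoints by library and grey dots for all viewpoints. The coloured dots rise from left to right within the grey cloud, and Rps26, with 25 neighbours, is the highest coloured dot.

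Upstream and downstream sides were compared in the direction of transcription of the ribosomal protein gene. In 77 members with a strand, 48.3% ± 0.189 (SD, n = 2) of events in the range of 10 to 100 kb and 48.5% ± 0.528 in that of 100 kb to 1 Mb lay downstream, where the fragments tested and their distances gave 50.1% and 50.5%. Over all viewpoints named for 1 gene with a strand the shares were 50.7% in both ranges, where 49.7% and 50% were given by the fragments. By member, 35 of 77 (45.5%) had more downstream than upstream events relative to the fragments tested from 10 to 100 kb, 28 of them in each library, and 33 members had more upstream events in each library. Over the 5271 viewpoints with a strand, 58.0% had more downstream events. Apart from the members these are named for 1 gene, whereas some members also name another gene, so the sets are unlike. Single members ranged from 0.174-fold (Rpl37a) to 3.64-fold (Rpl6) downstream over upstream. The upstream events of Rpl37a include those of the fragment with shared sequence described in the next paragraphs, without which the share of all members downstream was 49.0%. Without the 7 members of the deep regions it was 46.5%.

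Distal contacts were then sought, as fragments 2.5 kb to 1 Mb away with more events in the sum of the libraries than their distance and the viewpoint's total in that range give. The test was an upper-tail negative binomial test, and its p-values were Benjamini-Hochberg adjusted across the pairs of every viewpoint. A call needed an adjusted p under 0.05 and a count above expectation in each library. Over all viewpoints, 1185 of 28839794 pairs (0.00411%) were called, in 7.86% of viewpoints. Among members 9 of 344138 pairs (0.00262%) were called, in 4 of 79 viewpoints (5.06%), namely Rpl37a, Rps20, Rpl21 and Rpl24.

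Rpl37a, which encodes a zinc finger protein of the large subunit, had the highest value, at a fragment 70.3 kb upstream (chr1:72687404-72688114). This fragment is intergenic, 1.4 kb beyond the annotated Ankar gene. It had 564, 958 and 963 events in libraries a, b and c, compared with 4.25 expected in the sum. It took 13.4%, 12.9% and 13% of all cis events of the viewpoint. The fragment shares sequence with the viewpoint itself. The first 250 bases of both DpnII fragments, beginning with the restriction site, are shown with identical runs of at least 20 bases in capitals, for the viewpoint at chr1:72757500-72757749 and for the contact at chr1:72687402-72687651 (mm9, plus strand).
Rpl37a viewpoint: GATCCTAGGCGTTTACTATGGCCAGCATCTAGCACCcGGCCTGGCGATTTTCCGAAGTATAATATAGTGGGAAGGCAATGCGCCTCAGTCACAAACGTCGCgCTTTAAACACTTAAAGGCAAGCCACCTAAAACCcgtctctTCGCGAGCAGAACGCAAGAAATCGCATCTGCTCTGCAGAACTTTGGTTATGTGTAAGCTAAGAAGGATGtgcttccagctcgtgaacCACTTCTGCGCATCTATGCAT
Contacted fragment: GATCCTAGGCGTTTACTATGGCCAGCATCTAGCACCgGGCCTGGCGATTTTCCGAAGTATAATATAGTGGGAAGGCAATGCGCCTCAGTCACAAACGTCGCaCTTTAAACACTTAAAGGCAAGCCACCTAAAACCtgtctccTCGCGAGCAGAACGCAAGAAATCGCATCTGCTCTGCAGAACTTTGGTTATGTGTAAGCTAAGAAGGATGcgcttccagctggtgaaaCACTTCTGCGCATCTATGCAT
In this stretch 243 of 250 bases (97.2%) were identical, and the longest identical run in the whole fragments was 102 bases. The stretch lies upstream of the annotated start of Rpl37a. Without this fragment, the share of cis events from 10 to 100 kb fell from 20.9% to 9.0% in the sum, and it was 9.70%, 8.91% and 8.71% by library. The called fragment next to it had 13, 16 and 15 events, with 4.25 expected in the sum. How many of these events were placed by shared sequence was not tested.

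Fragments that share a 30-base word with their viewpoint were searched in all members. Within the tested range, 18 members had 1267 such pairs, of which 773 had 0 events. Observed over expected was 2.87 over these pairs, but 1.32 without the Rpl37a fragment, which held 2485 of their events. It was 3.82 over the 65609 such pairs of all viewpoints. A value of at least 10 was reached by 31 pairs of members, 30 of them with at most 11 events. Of the 65609 pairs of all viewpoints, 1367 reached it and 34874 had 0 events. Rps15a, which encodes a small subunit protein linked to Diamond-Blackfan anemia, had 8 events at a fragment inside the window of Gde1 described further on, with 0.291 expected.

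Rps20, which encodes a small subunit protein linked to Diamond-Blackfan anemia, had 5 called fragments 402 to 409 kb away, and none of them shares a 30-base word with the viewpoint. The region is intergenic on chromosome 4. The fragment with the most events (chr4:3359437-3361170) had 13, 14 and 13 events, with 0.979 expected in the sum, which gave 43.9 ± 9.12 times expectation (SD, n = 2). Its adjusted p was 1.01e-09 in the negative binomial test. It is the longest of the 5 fragments, and all 5 had the same expected count of 0.979, since fragment length was not modelled. This call and the other 4 of Rps20 were lost with no counts left out when the spread was estimated. Of the 5 calls, 3 were also lost when a single library was left out, at chr4:3352975-3353961 without library a or b, at chr4:3354355-3354496 without library b and at chr4:3354497-3354873 without library c. At chr4:3359437-3361170 each library gave at least 35.7 times expectation. The shortest called fragment (chr4:3354355-3354496, 142 bases), shown as the most narrowly placed of the 5, had 7, 9 and 5 events and held 0 matches to the GATA motif (A or T, then GATA, then A or G) on either strand.
Fragment in contact with Rps20: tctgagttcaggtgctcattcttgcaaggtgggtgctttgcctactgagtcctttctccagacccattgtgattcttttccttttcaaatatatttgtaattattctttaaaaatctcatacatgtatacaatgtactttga
Summed over 15 kb (the 3 called windows of the next paragraph), Rps20 had 72, 92 and 81 events, with 28.4 expected in the sum. The viewpoint of Tmem68 and Tgs1, only 144 kb from the region, had 3, 1 and 0 events there, with 7.14 expected, and Chchd7, 508 kb from it, had 0, 2 and 4, with 4.28 expected. These viewpoints lie between Rps20 and the region or beyond Rps20, and the difference between viewpoints was not tested. The other called fragments were 1 of Rpl21, 157 kb upstream and intergenic, with 1, 7 and 12 events, and 1 of Rpl24, 70.2 kb downstream in the gene now called Trmt10c, with 2, 9 and 6 events. Both calls were lost when library b or library c was left out, and with no counts left out when the spread was estimated.

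Sums over fixed 5 kb windows gave more calls. Over all viewpoints, 4225 of 2660512 windows (0.159%) were called, in 28.2% of viewpoints. Among members 49 of 31436 windows (0.156%) were called, in 24 of 79 viewpoints (30.4%), so that members stood near the background. Calls were found in 14 of 50 large subunit viewpoints (28.0%), 10 of 28 of the small subunit (35.7%), 1 of 4 paralogues and 7 of 20 linked to Diamond-Blackfan anemia (35.0%). Other lists gave 30.0% for mitochondrial ribosomal protein promoters (21 of 70), 31.2% for other genes with TOP mRNAs (5 of 16) and 21.6% for ribosome biogenesis factors (8 of 37). Of the ribosomal protein genes outside the name rule, 2 of 3 had a call. Called windows lay at a median of 297 kb, with 8 nearer than 100 kb and 15 beyond 500 kb, and 5 held a fragment that shares a 30-base word with the viewpoint. Of the 49 called windows, 9 were also called from another viewpoint. The core of the CTCF motif (both orientations) was found in 3 of the 49 called windows (6.12%) and in 4.32% of all tested windows of members, compared with 7.36% and 3.84% over all viewpoints. With no counts left out when the spread was estimated, 7 of the 49 windows were called, among them that of Rpl37a and the one of Mgat2_Rpl36al at 176 kb, and none of Rps20. Calls depended on single libraries: when library a, b or c was left out, 37, 27 and 19 of the 49 windows were called, and 11 windows of 8 members were called with each library left out in turn.

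These 11 windows included that of Rpl37a and the 3 of Rps20. The Rps20 windows, from chr4:3350001 to chr4:3365000, had 24, 32 and 27 events at 410 kb, 22, 38 and 32 at 405 kb and 26, 22 and 22 at 400 kb, with 7.83, 10.8 and 9.79 expected in the sums. Their adjusted p-values were 4.02e-06, 1.48e-04 and 2.32e-03. Rpl24, which encodes a large subunit protein at the subunit interface, had called windows from 67.1 to 162 kb downstream, and 2 of its 5 windows were called with each library left out. One of these (chr16:56035001-56040000), in Trmt10c, which encodes a mitochondrial tRNA methyltransferase, had 14, 30 and 24 events with 15.8 expected. The other (chr16:56125001-56130000), in Senp7, which encodes a SUMO protease, had 11, 20 and 14 events with 6.56 expected. This window holds a fragment sharing a word with the viewpoint, and its call was kept when such fragments were left out. That setting also left out fragments near a shared one, and it called more windows in general. With it, 39.2% of members and 34.7% of all viewpoints had a call, compared with 30.4% and 28.2% in the main setting. A call kept there was therefore not held to a stricter search. The Rpl24 windows chr16:56060001-56065000 and chr16:56110001-56115000 also hold a fragment sharing a word, and their calls were lost in that setting. The viewpoint of Rpl24 shares a 30-base word with 268937 other fragments of the genome. Rps3a1, a small subunit gene, had 8, 13 and 15 events in a window 565 kb away (chr3:85380001-85385000) next to the viewpoint of Gatb, with 4.77 expected. That window was also called from the viewpoint of Lrba. Mgat2_Rpl36al had 42, 54 and 60 events in a window 176 kb away (chr12:70460001-70465000) next to the viewpoint of Nemf, a factor of ribosome-associated quality control, with 30.8 expected and an adjusted p of 2.41e-03. Its values of 5.22, 4.69 and 5.35 times expectation lay close together. This window was also called from the viewpoint of Lrr1. A second window of Mgat2_Rpl36al, 497 kb away in Sos2 (chr12:70780001-70785000), had 15, 28 and 21 events with 11.6 expected, and its call was lost without library b or c. Rps29, a small subunit gene whose viewpoint lies 25.4 kb from that of Mgat2_Rpl36al, had 1, 4 and 8 events in the adjoining window (chr12:70455001-70460000) inside Nemf, with 1.99 expected. That call was lost without library b or c. The remaining windows of the 11 were 1 of Rpl37, 940 kb downstream and intergenic (chr15:6005001-6010000), with 5, 6 and 6 events against 1.59 expected, 1 of Rpl6, 133 kb downstream (chr5:121785001-121790000), with 7, 9 and 7 against 3.56, and 1 of Rps15a in Gde1 (chr7:125845001-125850000), with 9, 8 and 7 against 1.75. The Rps15a window holds a fragment with a shared word, and its call was lost when such fragments were left out.

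**Figure D4:**
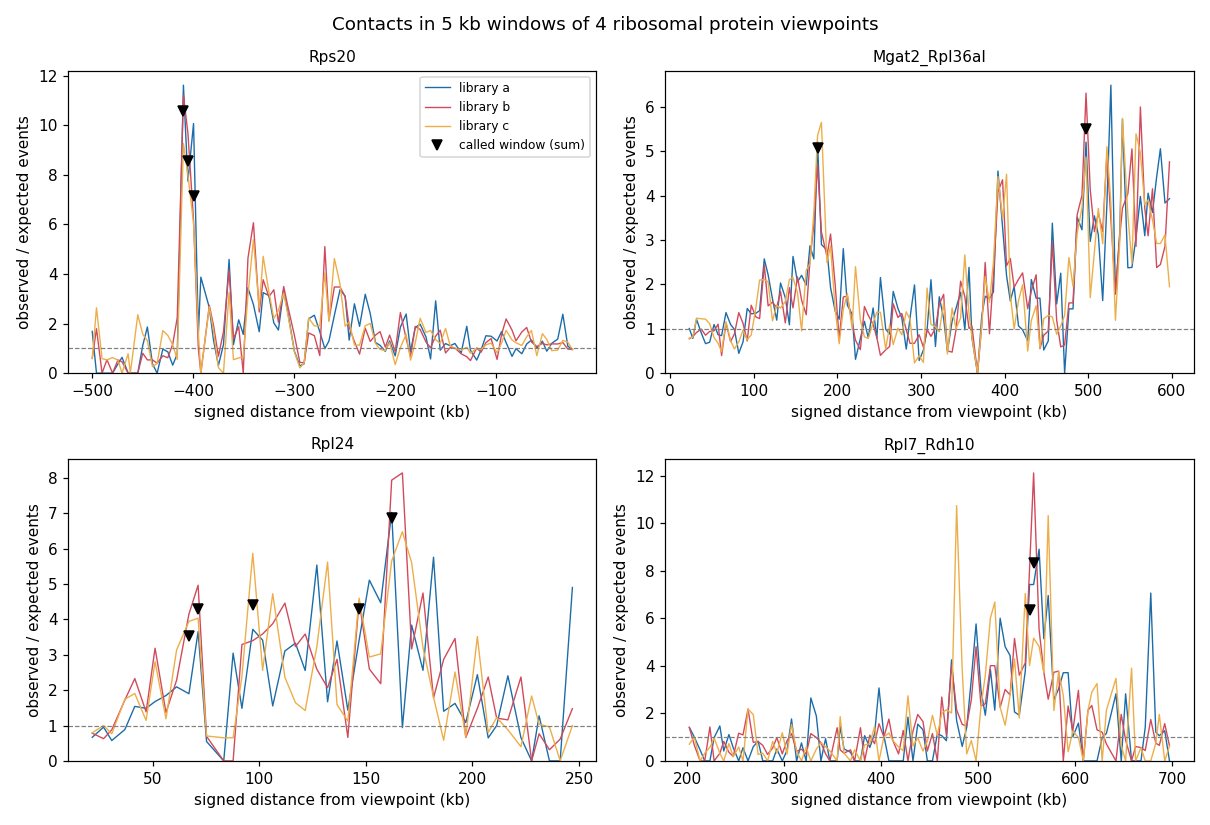
Observed over expected events in 5 kb windows against the signed distance from the viewpoint (kb, positive toward higher positions), with 1 line per library and triangles at called windows (value of the sum). The 3 called windows of Rps20 stand at 7.15 to 10.6 in the sum, from -410 to -400 kb, with all 3 libraries raised, and the strongest window of Rpl7_Rdh10 stands at 8.35.

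Of the other members named by the rule, Rpl7_Rdh10 had 4 called windows, of which 2 lay in Terf1, which encodes a telomere-binding protein, and 2 next to Eloc and Tmem70, with 8, 21 and 9 events and 4.55 expected in the strongest (557 kb). Rpl34_Rpl34ps1 had 7, 5 and 10 events 901 kb away in Gar1, which encodes a protein of H/ACA small nucleolar particles, with 2.47 expected. Rps19, the gene first linked to Diamond-Blackfan anemia, had 1, 5 and 5 events 388 kb away in Cic, which encodes a transcriptional repressor, with 1.29 expected. Rps12 had 2, 3 and 3 events next to Stx7, 366 kb away, with 0.692 expected, and a second called window 4.78 kb away in its own gene. Rpl23 had 7, 15 and 20 events in Ormdl3, 803 kb away, with 4.91 expected. Rpl8 had 3, 5 and 8 events in Puf60, a splicing factor gene 827 kb away, with 1.86 expected. Rps7 had 2 called windows, with 2, 16 and 9 events at 117 kb, against 5.64 expected, and 7, 12 and 7 at 172 kb, against 4.24. Rpl15_Nkiras1 had 10, 15 and 8 events 31.9 kb away in Nr1d2, which encodes a nuclear receptor of the circadian clock, with 8.24 expected. Windows of Rps6, Rpl22, Rpl21, Rpl28, Rps3 and Rpl30_Gm12191 were also called, with values of 3.12 times expectation or more, as for all 49. These 6 names, with Rpl6, lie outside the rule for named genes and were chosen after their values were seen. The genes linked to Diamond-Blackfan anemia with no called window were Rps10, Rps24, Rps27, Rps28, Rpl5, Rpl9, Rpl11, Rpl18, Rpl26, Rpl27, Rpl31, Rpl35 and Rpl35a, in addition to Rps26, which was too shallow. Their depth ran from 1117 events for Rps10 to 23639 for Rpl11, so they were not searched with the same precision.

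Called windows often lay at other promoters. Of the 49 called windows of members, 25 (51.0%) lay within 5 kb of another viewpoint, compared with 15.9% of all tested windows of members. The same shares over all viewpoints were 52.3% and 16.8%. Each such contact was then viewed from the other promoter, as the events that the other viewpoint had within 5 kb of the ribosomal protein viewpoint. These are different ligation products, although they come from the same libraries. All 29 views of 18 members were above expectation in the sum, with a median of 3.33 times expectation. In 25 of them (86.2%) this held in each library, and in 27 (93.1%) the 95% Poisson interval lay above 1. Over all viewpoints, 92.4% of 2440 such views were above expectation in each library. Where the window of a member near another viewpoint had not been called, the median of 3691 views was 1.59 and 53.0% were above expectation in each library. Some views repeat, because 1 promoter lay near 2 called windows.

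From Terf1 to Rpl7_Rdh10 there were 16, 6 and 10 events, with 5.44 expected. From the shared viewpoint of Eloc and D030040B21Rik to Rpl7_Rdh10 there were 23, 29 and 37 events, with 13.1 expected. From Nemf there were 18, 11 and 21 events to Mgat2_Rpl36al, with 17.8 expected, and 11, 25 and 26 to Rps29, with 30.1 expected. From Neu3 to Rps3 there were 12, 39 and 34, with 34.2 expected. From Trappc12 to Rps7 there were 16, 31 and 37, with 28.2 expected. From Cic_a to Rps19 there were 5, 11 and 10, with 10.6 expected. Each of these was above expectation in every library. The view from Ttc33 to Rpl37 was the weakest, with 19 events and 14.5 expected (1.31-fold, 95% Poisson interval 0.787 to 2.04).

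**Figure D5:**
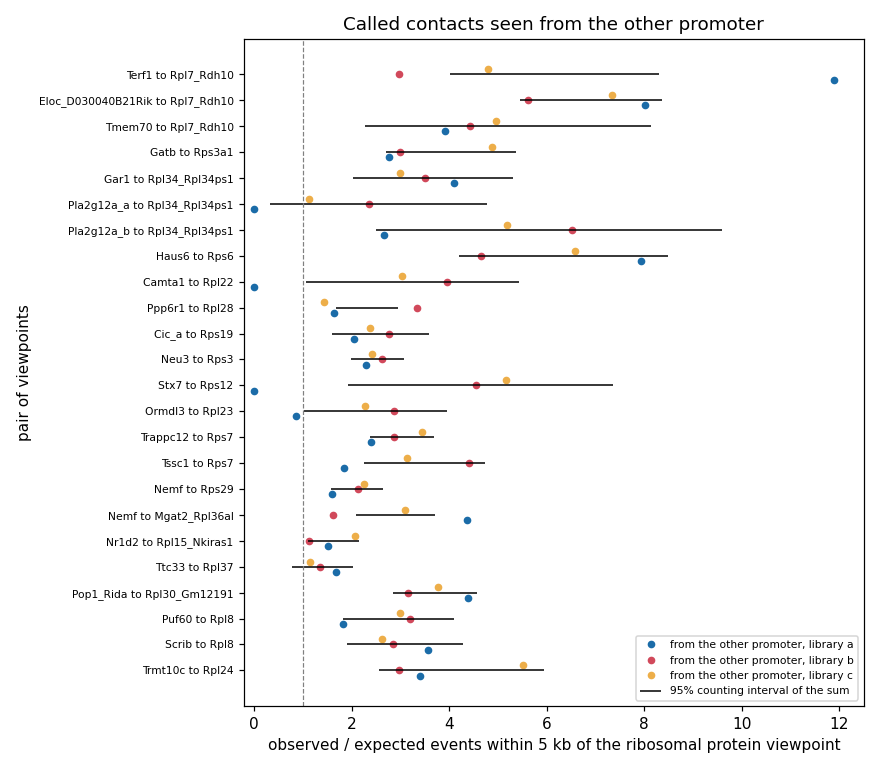
Observed over expected events within 5 kb of the ribosomal protein viewpoint as seen from the other promoter, for the 24 distinct pairs of viewpoints, with 1 dot per library and the 95% Poisson interval of the sum as a line. All sums lie above 1, and the dots of library a lie at 0 for Pla2g12a_a, Camta1 and Stx7.

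Over all fragments next to other viewpoints, not only called ones, the values of members were those of the series. At fragments 1 to 2 places from another viewpoint, observed over expected was 1.52 ± 0.0212 (SD, n = 2) for members, and it was 1.12 ± 0.0106 times that at fragments 11 to 20 places away. For all viewpoints this ratio was 1.14 ± 0.00354. The ratio of members was 1.11, 1.14 and 1.11 in libraries a, b and c. It turned below 1 when only the next fragment was used, at 0.889 for members and 0.999 for all viewpoints, so its direction depends on the choice of flank.

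Members that lay near each other, Rps19bp1 included, were then set side by side, at the fragments within 2 places of the other member. Within 1 Mb, 19 such views held 285 events, with observed over expected of 1.38 in all and a median of 1.74. Without Rps19bp1, which is no ribosomal protein gene, 17 views held 216 events, at 1.16 in all. The most events above expectation were seen from Rpl3_Snord43 (Rpl3 encodes a protein near the peptidyl transferase centre) to Rps19bp1, 181 kb away, with 11, 23 and 24 events and 18.1 expected (3.21-fold, 95% Poisson interval 2.43 to 4.14). The view back from Rps19bp1 had 3, 1 and 7 events with 2.87 expected (3.84-fold, 1.91 to 6.86), with library b below expectation at 0.938. Mgat2_Rpl36al had 13, 21 and 34 events at Rps29, with 43.2 expected (1.57-fold, 1.22 to 2.0). Rpl23 had 9 events at Rpl19_a, 244 kb away, with 3.79 expected (2.38-fold, 1.09 to 4.51), whereas it had 3 at Rpl19_b, with the same expectation. Rps18_Vps52 and Ndufa7_Rps28, 131 kb apart, had 6 and 4 events, at 1.75-fold and 1.98-fold. Rpl41 had 18 events at Rps26, 77.7 kb away, at 1.20-fold (0.709 to 1.89). Views of 1 to 4 events all had intervals that included 1.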

How the data were processed

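NuTi Capture-C, a promoter capture of DpnII ligation products, was run on 3 libraries. Reads were trimmed with Trim Galore and aligned to mm9 with Bowtie, per the labels, in versions not given in the sources used here. The deposited signal is what the authors wrote per contact and library, as reporters per 100,000 cis reporters of the viewpoint. Whole counts were worked back from it for 100.0% of values (tolerance 0.01), and 26 contacts that matched no fragment of the map were dropped. The authors' interaction caller was not run. No column of sample values was left unused (0 columns). Expected counts followed 50 distance bins from 2.5 kb to 1 Mb and the viewpoint's total. The spread of each bin was estimated after the top 0.1% of standardised counts, taken over all bins together, was left out. An upper-tail negative binomial test of summed counts was adjusted by Benjamini-Hochberg over all pairs and tested on simulated data. The simulated counts followed the model of the test, and excess was planted only in windows above a minimum expected count. Sparser windows and departures from that model were therefore not covered. Viewpoints with at least 1000 cis events were tested, and fragment length was not modelled. Targeted fragments are not listed as contacts of each other. Libraries b and c were averaged as 1 sample. With 1 group of unnamed columns, p-values measure counting and spread between fragments, not between animals. Named with values were members with calls (at most 12 by observed over expected), those with the 5 highest and 5 lowest near shares, the 3 deepest and 3 shallowest, pairs within 1 Mb, paralogues and genes linked to Diamond-Blackfan anemia. Some results that the rule names are not reported here. Members and lists were chosen with earlier results of these data known. Alternatives changed the depth minimum, distance limits, spread, threshold, window size, shared words and libraries. Python 3.11.15, numpy 2.4.6, pandas 2.3.3 and scipy 1.17.1 were used.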

Additional observations from a re-analysis of the deposited data

How the results depend on the processing

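No paired analysis was possible because there is 1 group and the columns carry no replicate numbers. The share of members above the depth minimum was 100% at 500 events, 87.8% at 2000 and 54.9% at 5000, compared with 97%, 85.6% and 60.6% of all viewpoints. The near share was 11.8% from 20 to 100 kb and 22.3% from 10 to 200 kb, and the slope was -0.833 with viewpoints not scaled to the same total. Called fragments numbered 1 with no counts left out of the spread, 42 with the highest 1% left out and 2680 in a Poisson test, in 1, 23 and 77 members, and 2 members had a call at an adjusted p under 0.01. These are 1.27%, 29.1%, 97.5% and 2.53% of members, compared with 2.31%, 23.6%, 98% and 3.99% of all viewpoints, so that members turned from below to above the background with the highest 1% left out. Called windows numbered 7, 118 and 2021 in these settings, in 6, 44 and 79 members, and 16 windows in 11 members at an adjusted p under 0.01. These are 7.59%, 55.7%, 100% and 13.9% of members, compared with 7.7%, 46.6%, 99.7% and 13.9% of all viewpoints. The number of calls therefore follows the estimate of the spread. The ratio next to other promoters was 0.889 with 1 place, 1.17 with 1 to 3 places, 1.27 with the background at 21 to 40 places and 1.14 with viewpoints weighted equally. The downstream share was 48.0% from 20 to 200 kb. Chosen after seeing the data, leaving out the fragment shared with Rpl37a gave 49.0% from 10 to 100 kb, and leaving out chromosome X and the chromosome 9 stretch gave 46.5%, and 47.5% from 100 kb to 1 Mb. With each library left out in turn, windows numbered 22 to 47 in 14 to 24 members and fragments 6 to 11 in 2 to 7 members. Without library a, b or c, windows were called in 30.4%, 24.1% and 17.7% of members and 25%, 20.5% and 20.6% of all viewpoints, and fragments in 8.86%, 3.8% and 2.53% of members and 6.61%, 5.39% and 4.97% of all viewpoints, so that the side of the background depends on the library left out. Depth gave 92.7% to 93.9%. In the sum of the libraries kept, the near share was 14.8% to 15.9% and the slope -0.884 to -0.866. The ratio next to promoters was 1.11 to 1.13, and the downstream shares were 48.2% to 48.4% and 48.5% to 48.9%. Each called fragment other than that shared with Rpl37a held fewer than 50 events, and whether more depth would change the calls was not tested. Further alternatives chosen after seeing the data, without the Rpl37a fragment and without Rps19bp1, stand beside their results.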
